A study of Mus musculus with 6 samples.

Results

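The genes described here are 7 subunits of the transcription factor AP-1: Fos, Fosl1 and Fosl2 of the Fos family, Jun, Junb and Jund of the Jun family, and Atf3. They were found by gene symbol in the annotation of the array, which names 10698 genes. This gave 8 of 16281 probes, 2 of them for Fos and 1 for each other gene. RAW 264.7 is a mouse macrophage line. One RNA came from untreated cells cultured for 1 h, the other from cells cultured for 1 h with 100 ng/ml lipopolysaccharide (LPS), the Gram-negative outer membrane glycolipid sensed by TLR4, and 100 pM LPS-binding protein (LBP), which delivers LPS to that receptor. Both RNAs were hybridised together on each of 6 arrays. On 3 of them, here the Cy5 arrays, the treated cells' RNA carried Cy5, and on the other 3, the Cy3 arrays, it carried Cy3. In both orientations the titles use set numbers 1 to 3. Nothing in the labels ties the sets to separate cultures, so every p-value reflects only how far these samples spread, and that spread may be technical.

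AP-1 is a dimer of basic leucine zipper (bZIP) proteins. Fos proteins need a Jun partner to bind DNA, Jun proteins can also pair with each other, and the ATF protein Atf3 can pair with Jun proteins. In macrophages, LPS reaches AP-1 through MAP kinases, which act both on the transcription of Fos and Jun genes and on the proteins. Fos and Jun are textbook immediate early genes, transcribed without new protein synthesis, and Fos mRNA is known for a rise that is brief.

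Each value is a log2 ratio of treated over untreated RNA, so that 1 is a doubling, and it is a difference, not a level. No intensities were used, so which subunit is more abundant was not measured, the number of arrays limits the precision, and macrophage identity could not be checked from levels. The sign takes the Cy5 channel as the numerator of the deposited ratios. This direction is likely rather than stated: each array's labels call its Cy5 RNA the test and its Cy3 RNA the control, and with Cy3 as the numerator every sign below would turn. A value of exactly 0 was taken as no measured ratio. Between 8.99% and 23.9% of the values of an array were 0, array medians lay between -0.0078 and 0.0159 after turning, and 11442 probes had a ratio on all 6 arrays. Among marker genes (limma on gene means), 1 of 9 measured macrophage markers was higher (Adgre1, 0.55) and 0 were lower. Of 6 measured lymphocyte markers 2 were higher, Cd4 (0.47) and Cd79a (0.20, above 0 on 5 of 6 arrays). Of 2 measured fibroblast and epithelial markers, 0 were called in either direction. Of all 8331 genes tested, 6.96% were higher and 6.21% lower. The part of these marker genes in the results below was not tested.

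Of the 7 AP-1 probes with a ratio on every array, 5 rose, 1 fell and 1 was not called. Fosl1 rose 2.90-fold, Fosl2 2.04-fold, Jun 1.67-fold, Jund 1.37-fold and Atf3 1.23-fold, whereas 1 of the 2 Fos probes was 1.37-fold lower in treated RNA. Junb was listed at 0 on all 6 arrays and gave no value. Calls were made at an adjusted p under 0.05 (limma on the 3 set averages, Benjamini-Hochberg over 11442 probes). Of all complete probes 12.5% were called, 6.85% higher and 5.63% lower. The 5 risers were above 0 on all 6 arrays, as were 10.1% of complete probes, and 8.87% were below 0 on all 6. The median ratio over all 11442 probes was -0.0078.

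**Figure D1:**
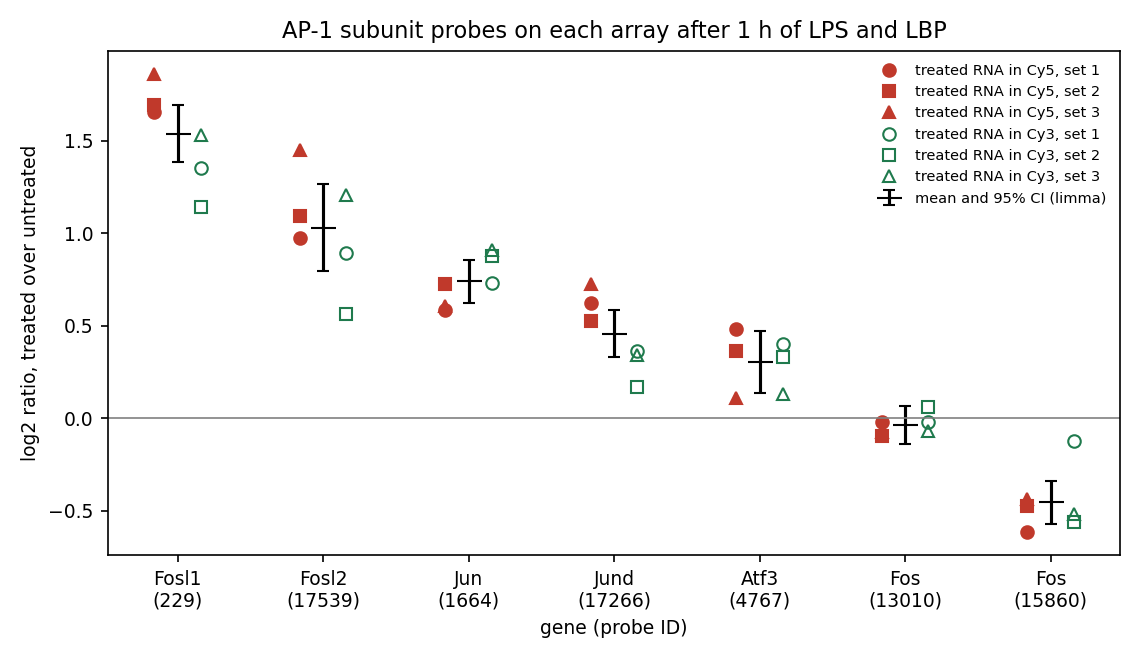
The log2 ratio of treated over untreated RNA on each array (points, 6 for each probe) is plotted for the 7 AP-1 probes that had a ratio on every array, with the mean and its 95% confidence interval from limma (black). Fosl1, Fosl2, Jun, Jund and Atf3 lie above 0 on all 6 arrays, Fos probe 15860 lies below 0 on all 6, and Fos probe 13010 straddles 0.

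Fosl1 encodes Fra-1, a Fos family protein that lacks the strong activation domain of Fos. For sets 1, 2 and 3 in turn, an order kept below, its ratios were 1.65, 1.69 and 1.86 on the Cy5 arrays and 1.35, 1.14 and 1.53 on the Cy3 arrays. All 6 arrays were well above 0. Every Cy5 array was above every Cy3 array, and 36.1% of complete probes likewise did not overlap between the orientations. The mean was 1.54 ± 0.14 (SD, n = 3 sets), with a 95% interval of 1.38 to 1.69 (limma, adjusted p = 5.27e-05). Fosl1 had the largest ratio of the 6 subunits with a value and ranked 66th from the top of the 11442 probes.

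Fosl2 encodes Fra-2, the closest relative of Fra-1. Its ratios were 0.98, 1.09 and 1.45 on the Cy5 arrays and 0.89, 0.56 and 1.20 on the Cy3 arrays. Set 3 was the highest in both orientations, and the orientations overlapped. The mean was 1.03 ± 0.26 (SD, n = 3 sets), with a 95% interval of 0.79 to 1.27 (limma, adjusted p = 0.00157). Fosl1 and Fosl2 were among the 0.972% of genes with a mean ratio of 1 or more.

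Fos, the founding member of its family, was read by 2 probes. Probe 13010, annotated with a RefSeq transcript record, gave -0.02, -0.10 and -0.08 on the Cy5 arrays and -0.02, 0.06 and -0.07 on the Cy3 arrays. These values lay on both sides of 0, with 1 of 6 above it. Their mean was -0.04 ± 0.03 (SD, n = 3 sets), with a 95% interval of -0.14 to 0.06 (limma, adjusted p = 0.624). For this probe alone, that interval leaves out any rise or fall as large as that of Fosl2 or Jun. It does not bound the change of Fos mRNA, as the other probe differed and signal over background was not known.

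Probe 15860, annotated with a GenBank sequence record of Fos, gave -0.62, -0.47 and -0.43 on the Cy5 arrays and -0.12, -0.56 and -0.52 on the Cy3 arrays. All 6 arrays were below 0, and the Cy3 array of set 1 stood nearer to 0 than the other 5. The mean was -0.45 ± 0.08 (SD, n = 3 sets), with a 95% interval of -0.57 to -0.34 (limma, adjusted p = 0.00239). Without the Cy3 array of set 1, in a fit to single arrays, the mean was -0.52 and was still called. On the 3 Cy3 arrays alone the mean was -0.40 and was not called (adjusted p = 0.0917, within 0.00146 to 0.0917 over the alternatives tried).

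The 2 Fos probes differed from each other on all 6 arrays, by 0.10 to 0.62. The mean difference, probe 13010 minus probe 15860, was 0.42 ± 0.08 (SD, n = 3 sets), with a 95% interval of 0.28 to 0.55 (limma over 1811 pairs of probes of one gene, adjusted p = 0.016). Of those pairs, 5.08% differed by this test, and in 11.7% 1 probe was called and the other was not. The difference was not called without set 1 (0.45) or without set 3 (0.42), nor on the Cy3 arrays alone (0.39). In a fit to single arrays it was called without the Cy3 array of set 1 (0.49), and was not called without any 1 of the other 5 (0.36 to 0.44, adjusted p of 0.0544 to 0.0932). Averaged over both probes, Fos was at -0.25 ± 0.04 (limma on genes, adjusted p = 0.0135), a value that neither probe gave. This gene mean was not called without set 1 (-0.27) or on the Cy3 arrays alone (-0.20).

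**Figure D2:**
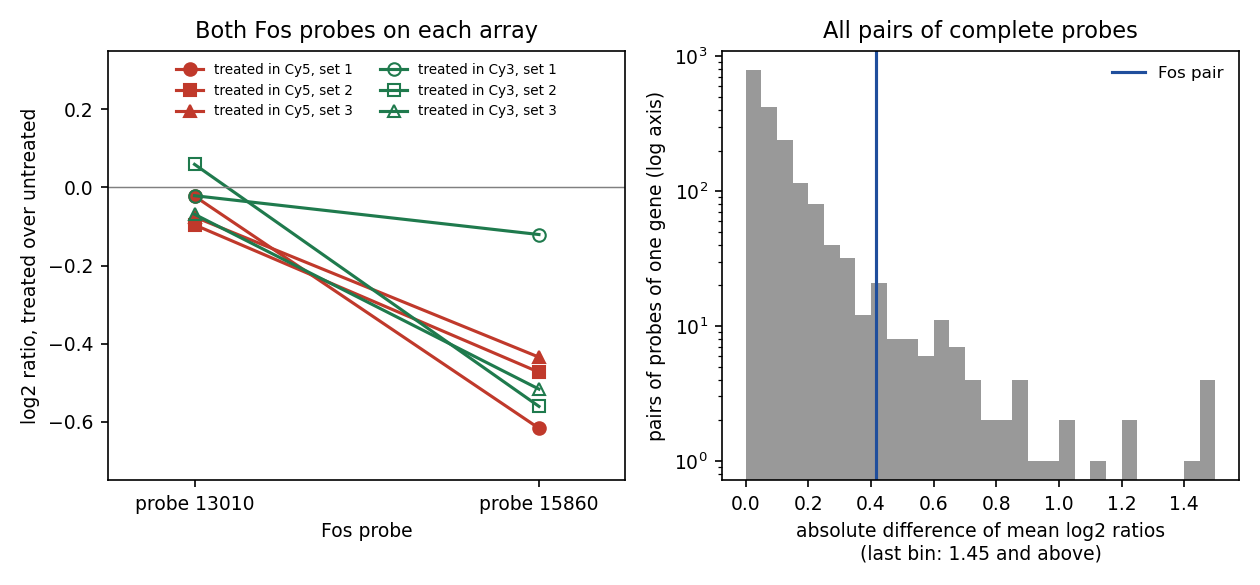
Left, the log2 ratio of treated over untreated RNA for both Fos probes on each of the 6 arrays, with a line joining the probes of one array. Right, a histogram (log axis) of the absolute difference between mean log2 ratios for all 1811 pairs of complete probes of one gene, with the Fos pair at 0.42 marked. Every line falls from probe 13010 to probe 15860, least on the Cy3 array of set 1.

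Jun encodes c-Jun, the main partner of Fos proteins. Its ratios were 0.59, 0.73 and 0.61 on the Cy5 arrays and 0.73, 0.88 and 0.91 on the Cy3 arrays. The arrays were close together, and here the Cy3 arrays were the higher ones. The mean was 0.74 ± 0.07 (SD, n = 3 sets), with a 95% interval of 0.62 to 0.86 (limma, adjusted p = 0.000311).

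Jund encodes JunD, which in many cells is present before stimulation. Its ratios were 0.62, 0.53 and 0.72 on the Cy5 arrays and 0.36, 0.17 and 0.34 on the Cy3 arrays. All 6 were above 0, but the orientations did not overlap, as for 36.1% of complete probes. The mean was 0.46 ± 0.10 (SD, n = 3 sets), with a 95% interval of 0.33 to 0.58 (limma, adjusted p = 0.0032). It was 0.62 on the Cy5 arrays alone, and 0.29 and not called on the Cy3 arrays alone (adjusted p = 0.0726, within 0.000549 to 0.0726 over the alternatives tried).

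Junb encodes JunB, often induced together with Fos in stimulated cells. Its single probe held no ratio on any array, as did 956 probes in all (5.87%), so nothing can be said here of its response.

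Atf3 encodes a stress-induced factor that in macrophages is known to restrain inflammatory genes. Its ratios were 0.48, 0.36 and 0.11 on the Cy5 arrays and 0.40, 0.33 and 0.13 on the Cy3 arrays. Set 3 was the lowest in both orientations, and set 1 the highest. The mean was 0.30 ± 0.17 (SD, n = 3 sets), with a 95% interval of 0.14 to 0.47 (limma, adjusted p = 0.0402), the smallest of the 5 rises. It was not called without set 1 (0.23) or without set 2 (0.28), on either orientation alone (0.32 in Cy5 and 0.29 in Cy3) or after quantile normalization (0.32), and over the alternatives its adjusted p ran from 0.00505 to 0.208.

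In order, the mean ratios ran from Fosl1 through Fosl2, Jun, Jund and Atf3 to Fos probe 13010 and Fos probe 15860. Fosl1 exceeded Fosl2 on all 6 arrays, by 0.32 to 0.68. Atf3 likewise exceeded Fos probe 13010 on all 6, by 0.19 to 0.51. The neighbours between them overlapped: Fosl2 exceeded Jun on 5 of 6 arrays (-0.31 to 0.84), Jun exceeded Jund on 4 (-0.12 to 0.71) and Jund exceeded Atf3 on 4 (-0.16 to 0.61). An exact two-sided permutation test that turns the signs of 3 set averages cannot go below p = 0.25, the value it gave for each of these gaps, and no other test of them was run.

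Some members differed between the dye orientations, as did many other probes. Fosl1, Jun and Jund had ratios that did not overlap between the Cy5 and the Cy3 arrays, a property of 36.1% of all complete probes. Fosl1 was higher by 0.39 and Jund by 0.33 on the Cy5 arrays, and Jun was lower by 0.20. A dye effect was called for 0 of the 7 probes (limma, adjusted p of 0.117 for Jund, 0.118 for Fosl1 and 0.163 for Jun), although the unadjusted 95% intervals of these 3 left out 0. In all, 6 probes (0.0524%) had a called dye effect. This low count does not show that dye effects were rare, since 36.1% of complete probes did not overlap between the orientations. Array ratios correlated at r = 0.60 to 0.81 within an orientation, and at 0.15 to 0.63 between orientations after turning. How many dye effects the fit missed was not tested. The average of both orientations, used for every mean above, cancels a dye effect that is equal in both.

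**Figure D3:**
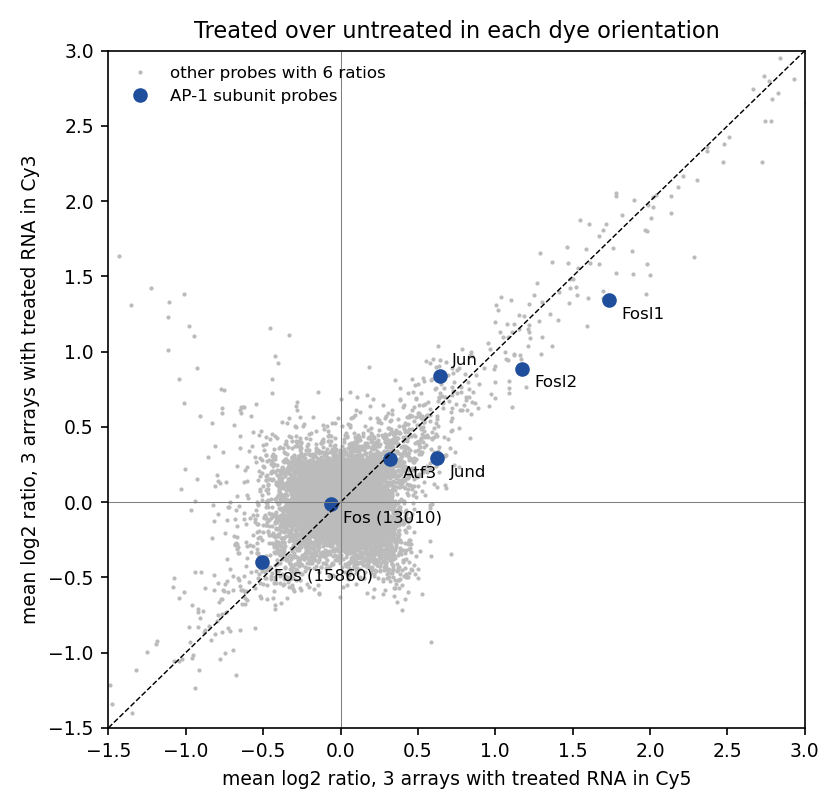
Mean log2 ratio of treated over untreated RNA on the 3 Cy5 arrays (horizontal) against the 3 Cy3 arrays (vertical), for the 11442 probes with 6 ratios (grey; 34 lie outside the axes) and the AP-1 probes (blue). Points on the dashed line have equal ratios in both orientations. Fosl1, Fosl2 and Jund lie below it, Jun and Fos probe 15860 above it, and Atf3 and Fos probe 13010 nearest to it.

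Promoters of the subunits were searched for known motifs, and a link between these sequences and the ratios was not tested. RefSeq windows (build GRCm38.p6) of 250 bases before to 50 bases after the start site were matched for 6 of the 7 genes, Fosl1 being the other. The 150 bases before the start site are given, 5′ to 3′ on the gene's strand, for Fos and for the risers Jun, Atf3 and Fosl2, with motif matches in capitals.
Fos (chr12:85473740-85473889, plus strand): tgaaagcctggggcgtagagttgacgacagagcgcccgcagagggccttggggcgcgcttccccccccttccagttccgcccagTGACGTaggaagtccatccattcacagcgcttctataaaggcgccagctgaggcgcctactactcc
Jun (chr4:95052223-95052372, minus strand): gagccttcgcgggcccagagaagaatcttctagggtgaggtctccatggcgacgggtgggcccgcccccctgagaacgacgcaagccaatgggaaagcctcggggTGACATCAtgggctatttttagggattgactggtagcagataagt
Atf3 (chr1:191183334-191183483, minus strand): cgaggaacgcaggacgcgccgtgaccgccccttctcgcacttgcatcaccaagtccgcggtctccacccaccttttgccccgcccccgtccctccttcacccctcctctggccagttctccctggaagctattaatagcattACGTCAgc
Fosl2 (chr5:32136322-32136471, plus strand): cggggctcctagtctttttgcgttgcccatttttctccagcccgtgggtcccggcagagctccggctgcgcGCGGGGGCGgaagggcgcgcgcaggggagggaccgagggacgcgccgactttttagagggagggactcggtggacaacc

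The windows were searched on both strands for TGANTCA, the classical AP-1 element (7.81% of 32851 RefSeq windows of the same length), TGACGTCA, the cyclic AMP response element (1.79%), GCGNGGGCG, an EGR element (5.55%), the CArG box of serum response factor (1.63%) and the kappaB element (8.46%). TGACGT (7.51%) and TGACNTCA (8.83%), which overlap the cyclic AMP element, were added after the promoters had been seen. Fos held TGACGT at bases -66 to -61 from the start site and a kappaB element at -214 to -205, outside the stretch shown. Jun held TGACNTCA at -45 to -38, as TGACATCA. Atf3 held TGACGT on the other strand at -8 to -3. Fosl2 held GCGNGGGCG at -79 to -71 and overlapping kappaB matches from -182 to -172, outside the stretch shown. The windows of Junb and Jund held none of the 7 motifs, and those of all 6 genes held neither TGANTCA, TGACGTCA nor a CArG box. Bases more than 250 before or 50 after the start site were not searched, so elements there would be missed. No match was shared by all the risers that had a window. A match is only a run of letters, and binding was not measured.

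The other bZIP factors are relatives that can pair with or compete with AP-1 subunits. Of 18 measured genes of this list 8 rose, 0 fell and 10 were not called, beside 6.96% higher and 6.21% lower among the 8331 genes tested (limma on gene means), and their median was 0.18 against -0.0092 for all genes. Maff, a small Maf protein without an activation domain, rose by 1.75 ± 0.21 (SD, n = 3 sets). Ddit3, a stress factor of the C/EBP type, rose by 1.01 ± 0.06, and Mafk, another small Maf gene, rose by 0.38 ± 0.19. The other 5 that rose, named after their values were seen, were Nfe2l1, Jdp2, Atf5, Creb1 and Atf4, from 0.33 down to 0.21. Bach1, which pairs with small Maf proteins, had the lowest ratio at -0.32 and was not called (adjusted p = 0.0544). Without set 1 only 3 of the 18 rose, and Mafk (0.44) was then not called. Batf, a partner of Jun proteins, was at -0.0098 and Nfe2l2, an antioxidant response factor, at -0.08, neither called.

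Of 26 measured kinases upstream of AP-1, 3 rose (11.5%) and 3 fell (11.5%), beside 6.96% and 6.21% of all genes, and their median was 0.05. Map3k8, the kinase Tpl2 that couples TLR4 to the ERK pathway, rose by 0.56 ± 0.20, Map3k2 rose by 0.30 ± 0.08 and Mapkapk2, a kinase downstream of p38, rose by 0.24 ± 0.07. Map3k1, a kinase upstream of JNK, fell by 0.45 ± 0.04, and Tab1, a partner of the kinase TAK1, fell by 0.43 ± 0.06. The third that fell, named after its value was seen, was Mapk14, the p38 alpha kinase gene (-0.17). Without set 1, 1 kinase rose and Map3k2 (0.33) and Mapkapk2 (0.28) were not called, and Mapkapk2 was also not called without set 2 (0.22) or set 3 (0.22). Mapk8 and Mapk9, which encode the JNK kinases that phosphorylate c-Jun, were at 0.0023 and 0.09, not called.

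Among 12 measured factors that act at Fos and Jun promoters, 4 rose (33.3%) and 1 fell (8.33%), with a median of 0.11. Of all genes, 6.96% rose and 6.21% fell. Ets2, an ETS factor, rose by 0.63 ± 0.09, Srf, the factor that binds the CArG box, rose by 0.28 ± 0.06, and Stat3, a cytokine-activated factor, rose by 0.24 ± 0.07. Elk4, a partner of Srf, rose (0.24) and Sp3, a GC box factor, fell (-0.32), though Sp3 was above 0 on 1 array; both were named after their values were seen. Srf (0.12) and Stat3 (0.14) were not called on the Cy3 arrays alone, where 1 factor rose. Without set 1, 1 of the 12 rose, and Srf (0.30) and Stat3 (0.28) were not called. Without set 3, 2 rose, Stat3 again not being called (0.24), nor was it without set 2 (0.21).

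Of 13 measured regulators of AP-1 protein and mRNA, 4 rose (30.8%) and 0 fell, beside 6.96% and 6.21% of all genes. The median of the list was 0.07. Zfp36, whose protein destabilises AU-rich mRNAs, rose by 2.14 ± 0.13, Dusp1, a phosphatase that switches off MAP kinases, by 1.82 ± 0.23 and Zfp36l1, a relative of Zfp36, by 0.60 ± 0.10. The other riser was Elavl1 (0.18), whose protein HuR binds AU-rich mRNAs, and it was above 0 on 5 of 6 arrays. Zfp36l2, a further relative of Zfp36, was at -0.37 and was not called. Both were named after their values were seen. Itch and Cop1, ubiquitin ligase genes whose products act on c-Jun, were at 0.07 and 0.08, not called.

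The textbook AP-1 target genes had 10 of 23 measured members that rose (43.5%) and 1 that fell (4.35%), with a median of 0.14. Of all genes, 6.96% rose and 6.21% fell. Il1b, an inflammatory cytokine gene, rose by 2.54 ± 0.16, Tnf, another, by 2.44 ± 0.19 and Plaur, the receptor of urokinase, by 1.17 ± 0.11. Ccnd1, the cyclin D1 gene, fell by 0.21 ± 0.04 and was not called without set 1 (-0.23), set 2 (-0.19) or set 3 (-0.20). The collagenase gene Mmp13 rose by 0.43, while Mmp9, Mmp12 and Mmp3 were at 0.00013, 0.01 and 0.07, not called. These matrix protease genes were named after their values were seen. The list was chosen with earlier results of these data known, and whether AP-1 drove these changes was not tested.

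Of 24 measured other immediate early genes, 15 rose (62.5%) and 3 fell (12.5%), beside 6.96% and 6.21% of all genes. The median of the list was 0.85. Fosl1 (1.54) and Fosl2 (1.03) lay above that median, and Jun (0.74), Jund (0.46) and Atf3 (0.30) below it. Egr1, Egr2 and Phlda1 had the largest rises of that list, 5.13 ± 0.16, 3.79 ± 0.25 and 3.37 ± 0.19. Ratios below that of Fos probe 15860 or close to it were found for Klf2 (-0.47 ± 0.23) and Nr4a2 (-0.38 ± 0.13). The third that fell, named after its value was seen, was Klf4 (-0.28). Klf2 and Nr4a2 fell, but neither was called without set 1 (-0.40 and -0.35), and on the Cy3 arrays alone 0 of the 3 were called lower. Nr4a2 was also not called, at -0.04, with its incomplete probe included.

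**Figure D4:**
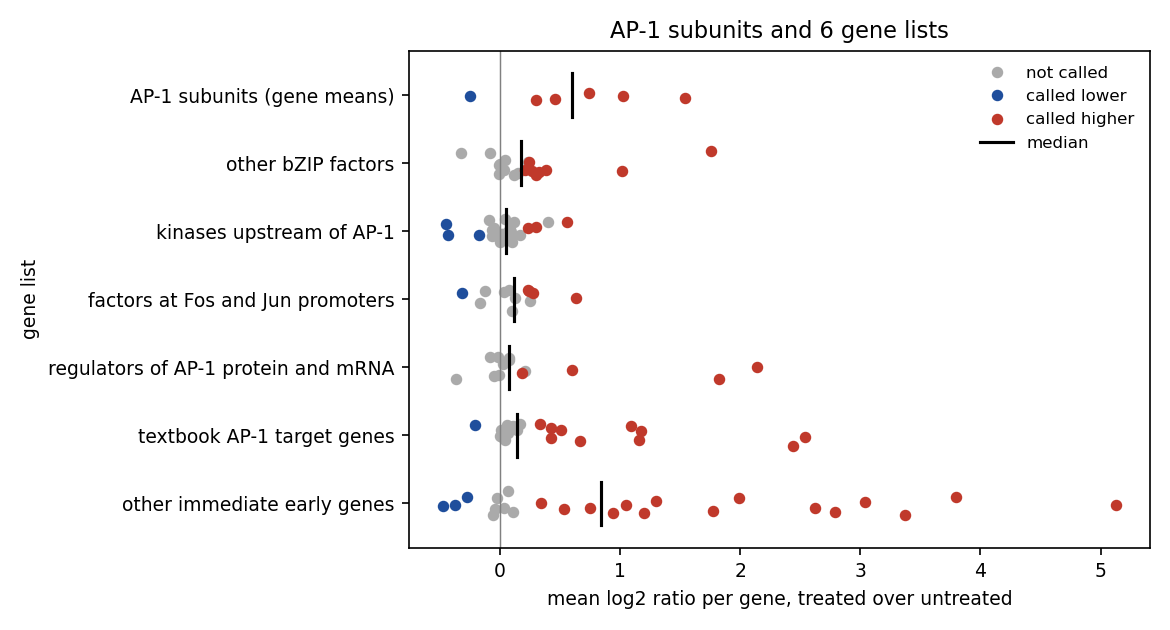
Mean log2 ratio of treated over untreated RNA for each measured gene of the AP-1 subunits (6 genes, Fos as the mean of its 2 probes) and of 6 gene lists, coloured by call (limma, adjusted p under 0.05), with the median of each list as a bar. All 5 AP-1 subunits that rose lie between 0.30 and 1.54, and the other immediate early genes reach 5.13.

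The genes whose 6 array ratios lay closest to those of each called subunit probe were found by root mean square difference over the 6 arrays. For Fosl1 they were Marcksl1, Ppp1r15a and Relb, at 0.18 to 0.20. For Fosl2 they were Ddit3, Plk3 and Nfkb2, at 0.20 to 0.21. For Jun they were Coq10b, Zfp593 and Erbin, at 0.08 to 0.09, and for Jund Esrrg, Dnajb1 and Slc7a11, at 0.05 to 0.12. For Atf3 they were Dcxr, H3c14 and Il10rb, at 0.08 to 0.10. For Fos probe 15860 they were Mettl21a, Tmem41a and Stat2, at 0.13 to 0.14.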

How the data were processed

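The deposited values are log2 ratios, 1 per probe and array (16281 probes, 6 arrays). The base was worked out: multiplied by log10 of 2, between 99.97% and 99.99% of an array's non-zero values become 6-digit numbers (relative tolerance 1e-12). For the scanner, background correction, scaling and numerator, the sources used here say nothing. The arrays are centred near 0 by an unstated method.

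Exact zeros were set to missing, the Cy3 arrays were turned by -1, and the arrays that share a set number were averaged, so each swap counts once. A limma 3.58.1 fit in R 4.3.3 then tested the 3 averages against 0 (lmFit, eBayes, two-sided, Benjamini-Hochberg, 2 residual degrees of freedom, prior 3.99 for probes and 4.08 for genes). Complete probes with 1 symbol (9968) were averaged to 8331 genes. The procedure was tested on simulated data. Differences between probes used the same fit over all pairs.

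The members, lists and tests were chosen with earlier results of these data known. Named genes are all members, up to 3 called genes of largest rise and 2 of largest fall in each list with 1 sign on all arrays, and the 3 nearest genes of each called member. Alternatives covered the replicate structure, each set, array and orientation, zeros, incomplete probes, scaling, centring and robust eBayes.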

Additional observations from a re-analysis of the deposited data

Results flagged for a closer look

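1 value stood apart from the other arrays. Fos probe 15860 was at -0.12 on the Cy3 array of set 1, while the other 5 arrays lay between -0.62 and -0.43. The gap to the nearest array was 0.633 of the whole range, above Dixon's critical value of 0.625 for 6 arrays, with all 6 turned ratios taken as 1 group. Chance flags about 1 in 20 groups, and 7 probes were examined. The other Fos probe was at -0.02 on the same array.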

How the results depend on the processing

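Fosl1 and Jun kept their sign and call under every alternative tried, from 1.34 to 1.73 and from 0.64 to 0.84, and Fos probe 13010 was called in none (-0.06 to -0.01). No member changed sign. Calls were lost on the Cy3 arrays alone for Jund (0.29), Fos probe 15860 (-0.40), Atf3 (0.29) and the difference between the Fos probes (0.39), and for Atf3 on the Cy5 arrays alone (0.32) and after quantile normalization (0.32). With zeros kept as ratios the values of Fosl2 (1.03), Jund (0.46), Fos probe 15860 (-0.45), Atf3 (0.30) and the Fos difference (0.42) did not move, but none of them passed, over 16281 probes or 3669 pairs. With a set or a single array left out, Atf3 ranged from 0.23 to 0.40 and the Fos difference from 0.36 to 0.49. Atf3 was not called without set 1, set 2 or any 1 of 3 single arrays, nor the Fos difference without set 1, set 3 or any 1 of 5 single arrays. Leaving out single arrays, and the added motifs, were chosen after seeing the data.

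The main fit called 1428 probes and 1097 genes. The fit to single arrays with a dye term, used where 1 array was left out, called 1859 probes and 1439 genes with all 6 arrays. With 1 array left out it called 1215 to 1554 probes and 951 to 1167 genes in total. The main fit with a set left out called 621 to 1245 probes and 499 to 832 genes in total. The lowest counts came without set 1, and 927 probes were called without set 2. On the Cy3 arrays alone the totals were 837 and 649, and with zeros kept 522 and 522. How many of these calls were also in the main fit was not counted. Genes called higher among other bZIP factors (8) numbered 3 to 8 with a set or array left out, 4 on the Cy5 arrays, 5 on the Cy3 arrays and 4 with zeros kept. Upstream kinases (3) numbered 1 to 4 and 0 with zeros kept, and promoter factors (4) numbered 1 to 5, 1 on the Cy3 arrays and 1 with zeros kept. In the fit to single arrays with none left out, these lists had 8, 4 and 5 genes called higher. Leaving out a set leaves fewer degrees of freedom than the main fit has. The cause of these changes was not tested.

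Same-numbered arrays did not deviate together (r = 0.0056, -0.258 and -0.0636), and no array correlated best with its own number. These values show no pairing, but weak correlations cannot decide whether same-numbered arrays share a sample. Averaging unpaired arrays can make the SD between sets smaller than that between arrays. Over the 6 turned arrays, which also differ in orientation, the SD was 0.26 for Fosl1, 0.30 for Fosl2 and 0.13 for Jun. It was 0.20 for Jund, 0.15 for Atf3, 0.06 for Fos probe 13010 and 0.18 for Fos probe 15860. Without the replicate block, 6 arrays with a dye term gave 1859 probes called, and with the set as a random replicate block 1725. Neither changed the call of a member probe or of the Fos difference. Signal over background was not known.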

Other observations

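Atf2, a bZIP gene whose product pairs with c-Jun, had a probe that followed the dye. Probe 15630 gave -1.86, -2.32 and -1.17 on the Cy5 arrays and 2.52, 2.11 and 1.81 on the Cy3 arrays, a mean of 0.18 that was not called (limma, adjusted p = 0.274). Its other probe, 10476, was at 0.11, -0.07 and 0.14 on the Cy5 arrays and at 0.53, 0.57 and 0.43 on the Cy3 arrays, so the orientations did not overlap and 1 array was below 0. Its mean of 0.29 was called (limma, adjusted p = 0.00899). The mean of both, 0.23, was not called (adjusted p = 0.0575).

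The probes of Creb1, which encodes the factor of the cyclic AMP element, were at 0.35, called, and 0.14, not called. Both probes of Nfe2l1, a stress-responsive bZIP gene, rose (0.38 and 0.28). Batf3, Creb3l1, Nrl, Nfe2 and Nfe2l3 lacked a complete probe. Batf3, a relative of Batf, was measured on 5 arrays, with 2 of 5 ratios above 0 and a mean of 0.04.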
